A study of Cavia porcellus with 8 samples.

Results

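In guinea pig left ventricle, 40 of the 25028 Ensembl gene IDs in the files met a rule that asked for a level at least 4-fold higher in the foetus than in the adult, with no overlap between the groups and with limits on abundance. The series profiled total RNA of the left ventricular wall of Dunkin Hartley guinea pigs (Cavia porcellus) in 2 groups, 4 non-pregnant adults and 4 foetuses taken at gestation day 67, which is close to term. No animal was treated, hearts of both groups were cleared of blood with cardioplegic solution, which arrests the beat through its high potassium, and the libraries were depleted of ribosomal RNA. The labels give neither the sex of each animal, nor the litter of each foetus, nor how old each adult was, so sex and litter cannot be told apart from age group. Foetus replicates 1 and 2 carry descriptions that begin with a shared number, and the labels do not explain it. The labels call the libraries biological replicates, and their files held 8009143 to 10846059 counts assigned to genes.

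The 40 genes were selected on the measured levels themselves. Levels are in CPM, the count of a gene divided by all gene counts of its library, times 1000000. A gene was taken where the foetal mean plus 0.5 CPM was 4 or more times the adult mean plus 0.5 CPM, where the lowest foetal library exceeded the highest adult library, where the foetal mean was 5 CPM or more, and where the mean over all 8 libraries was under 1000 CPM. Adult levels, foetal levels and the fold between them are therefore descriptions of what was chosen, with no test. The rule did not ask which library of a group was highest or lowest. It did use the mean and an extreme value of each group, so the order of the libraries is not independent of the selection. The files do not pair IDs with gene names, and 0 of the 25028 IDs matched a reference table of 37416 guinea pig genes. ENSCPOG00000026774, with the largest fold, and ENSCPOG00000011926, with the highest foetal level, are given by ID. The others are given by their rank of fold, from 1 to 40.

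Around birth the mammalian ventricle passes from growth by division of muscle cells to growth by their enlargement, and from sugar and lactate towards fatty acids as fuel. Genes of cell division, of foetal isoforms of contractile proteins, of the growing extracellular matrix and of red cell precursors are textbook examples of transcripts that are more abundant before birth than in the adult heart. Without names, which of the 40 genes belong to such groups was not analysed here, and the ventricular identity of the tissue was not checked against marker genes. In tissue RNA, fewer cells of a type and less RNA per cell cannot be told apart.

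Most of the 40 genes were reduced in the adult but still present. Their adult means ran from 0.353 to 353 CPM with a median of 8.48 CPM, beside a median of 19.6 CPM over the 11831 genes tested. Their foetal means ran from 5.08 to 1772 CPM with a median of 41.1 CPM, beside 18.3 CPM over the genes tested. In the adult, 23 genes had a mean of 5 CPM or more, 14 of 20 CPM or more and 4 of 50 CPM or more. A mean under 1 CPM was found for 3 of the 40 genes, and without Adult replicate 1 for 5. Of all 11831 tested genes, 122 (1.03%) had an adult mean under 1 CPM, a smaller share than among the 40. None of the 40 was at 3 or fewer counts in every adult library, the limit that a count of 0 allows, and 37 had more than 3 counts in each of them. The word shut down, applied to these genes, thus goes beyond these counts. The limit of 3 counts covers counting error only.

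**Figure D1:**
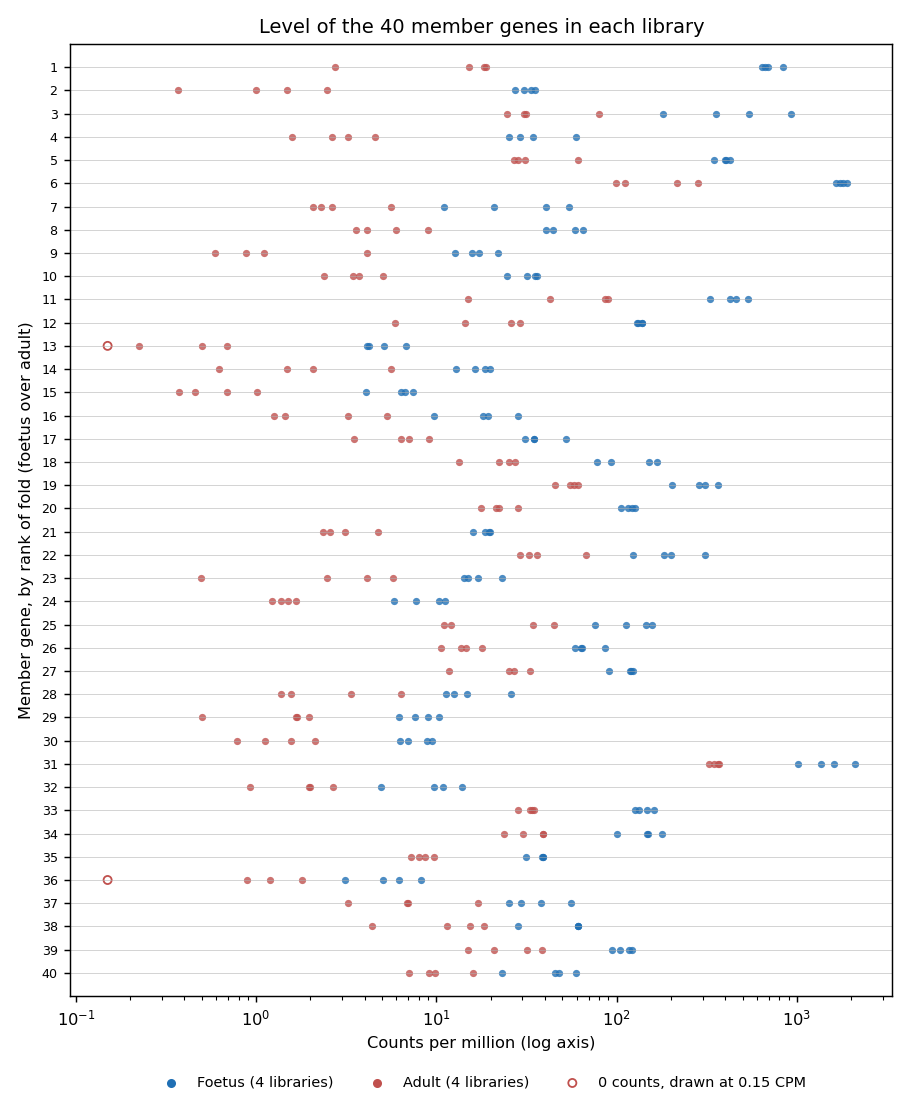
Level of each of the 40 genes (rows, by rank of fold) in the 4 foetal and 4 adult libraries, in CPM on a log axis, 1 point per library (foetus blue, adult red, open circles for a count of 0). No foetal point lies below an adult point of the same gene, which the rule required, and most adult points lie above 1 CPM.

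ENSCPOG00000026774 stood apart from the other members by its fold. It was at 644.5, 842.6, 666.5 and 688.4 CPM in Foetus replicates 1 to 4 and at 18.4, 15.2, 18.9 and 2.75 CPM in Adult replicates 1 to 4. The foetal libraries lay close together, and 3 adult libraries did too, while Adult replicate 4 was far below them. The means were 710.5 ± 89.9 CPM and 13.8 ± 7.57 CPM (SD, n = 4 each), a ratio of 49.7 by the rule and a log2 fold change of −5.74 (SE 0.43) in the fit of edgeR. The lowest foetal library was 34.1 times the highest adult one. The adult level rested on 165, 154, 205 and 22 counts, so the gene was well above the detection limit in every adult.

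ENSCPOG00000011926 had the highest foetal level. Its foetal libraries held 1735, 1802, 1893 and 1658 CPM for replicates 1 to 4, and its adult libraries 112, 282, 217 and 98.6 CPM. The foetal values differed by less than 1.2-fold (highest over lowest 1.14), whereas the adult values formed a higher pair, replicates 2 and 3, and a lower pair, replicates 1 and 4. The means were 1772 ± 99.9 CPM in the foetus and 177.5 ± 87.6 CPM in the adult (SD, n = 4 each), a ratio of 9.96 and a log2 fold change of −3.39 (SE 0.30, edgeR). With 177.5 CPM this gene had the second highest adult level of the 40.

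Folds above 10, with 0.5 CPM added to both means as in the rule, were rare. A plain ratio of the means is larger for every member, most of all at low adult levels. Of the 40 genes, 5 had a fold of 10 or more, 8 of 8 or more and 21 of 5 or more, and the median was 5.14. The rank 2 gene, at 17.6-fold, was at 27.4, 30.6, 33.4 and 35.3 CPM in Foetus replicates 1 to 4 and at 2.46, 1.48, 0.369 and 0.999 CPM in the adults, which rested on 22, 15, 4 and 8 counts. It was uniform in the foetus and close to the detection limit in Adult replicate 3. The rank 5 gene, at 10.6-fold, was at 349, 426, 402 and 402 CPM in the foetuses and at 28.4, 27.1, 60.9 and 31.0 CPM in the adults. Here Adult replicate 3 was the high one and the other 3 adults agreed closely. The rank 31 gene had the second highest foetal level and the highest adult level of the 40. It was at 2105, 1368, 1021 and 1614 CPM in the foetuses, a 2.06-fold range, and at 326, 372, 365.5 and 348 CPM in the adults, which hardly differed.

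The genes closest to the detection limit in the adult were those of rank 13, 15 and 36. The rank 13 gene had 2, 7, 0 and 4 counts in Adult replicates 1 to 4, against 48, 42, 62 and 41 in the foetuses. The rank 36 gene had 16, 9, 13 and 0 counts in the adults and 29, 50, 75 and 62 in the foetuses. A count of 0 allows up to 0.277 CPM in Adult replicate 3 and up to 0.375 CPM in Adult replicate 4. The rank 15 gene had 9, 7, 5 and 3 counts in the adults and 38, 74, 58 and 67 in the foetuses. The 0.5 CPM added to both means lowered the fold of every member, and most strongly in these 3 genes. Adding 1 CPM instead removed 6 members, and adding none brought in 10 other genes.

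The distance between the groups was often narrower than the fold of the means. The lowest foetal library was 1.46 to 34.1 times the highest adult library, with a median of 3.104. It was under 2-fold for 10 genes and under 1.5-fold for 2, those of rank 37 and 40. At the border of the rule, the rank 40 gene was at 59.2, 45.5, 23.2 and 48.1 CPM in Foetus replicates 1 to 4 and 15.9, 9.85, 7.01 and 9.11 CPM in the adults, and it shared a fold of 4.06 with the rank 39 gene. Just outside, at folds of 3.97 and 3.87, lay genes with foetal means of 5.18 and 298 CPM and adult means of 0.931 and 76.6 CPM.

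Other genes reached the fold but failed another condition. A lower limit of 1 CPM on the foetal mean would have added 14 genes, and overlap between the groups left out 2. One was at 28.9, 10.2, 3.63 and 23.7 CPM in Foetus replicates 1 to 4, where replicate 3 lay under the highest adult value of 4.92 CPM. The other was at 86.8, 91.6, 7.47 and 90.2 CPM, and again only Foetus replicate 3 failed, lying below all adults, whose values ran from 10.4 to 17.4 CPM. The limit of 1000 CPM left out 2 genes, with foetal means of 2474 ± 975 and 21000 ± 9303 CPM and adult means of 461 ± 230 and 3931 ± 815 CPM (SD, n = 4 each). In the more abundant of these, Foetus replicate 3 held 7363 CPM against 23526 to 28227 CPM in the other foetuses.

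**Figure D2:**
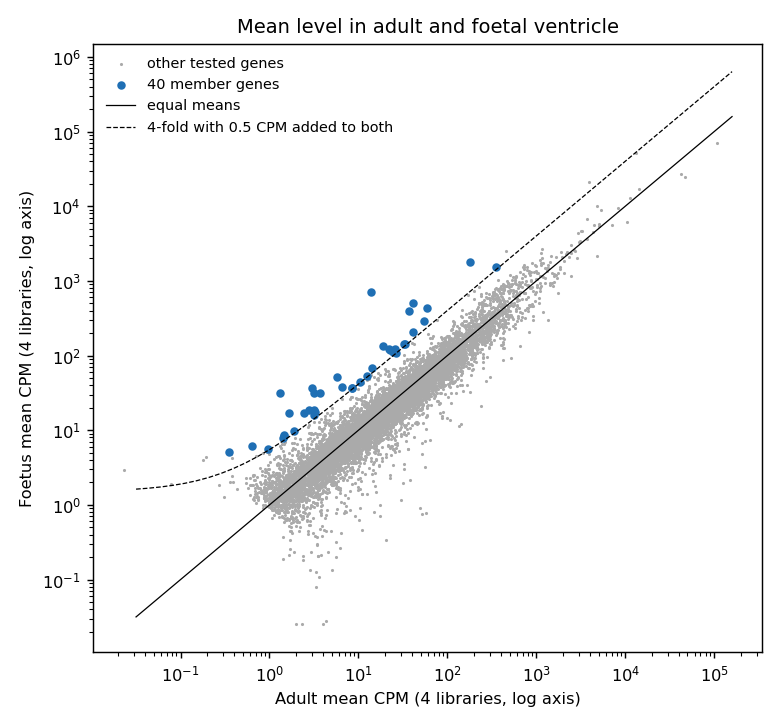
Mean CPM of the 4 foetal libraries (vertical, log axis) against the 4 adult libraries (horizontal, log axis) for the genes tested, without 5 genes whose mean was 0 in a group. The 40 genes lie above the dashed line of 4-fold, spread over foetal means from 5.08 to 1772 CPM, and 3 of them lie to the left of 1 CPM in the adult.

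Together the 40 genes made up 0.746% ± 0.0922 of the gene counts in the foetus and 0.108% ± 0.0128 in the adult (SD, n = 4 each), a ratio of summed mean CPM of 6.88. The share was 0.865% (95% Wilson interval 0.859% to 0.871%) in Foetus replicate 1, 0.731% in replicate 2, 0.747% in replicate 4 and 0.641% (0.636% to 0.646%) in replicate 3. In the adults it was 0.105%, 0.122%, 0.114% and 0.0923% for replicates 1 to 4. The sum was concentrated, since ENSCPOG00000011926 alone gave 23.8% of it in the foetus, the 2 most abundant genes 44.2% and the 6 most abundant 71.6%. Without those 2 the others summed to 4813, 4143, 3494 and 4197 CPM in the foetuses and to 615, 567, 558.5 and 477 CPM in the adults.

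All 40 genes passed the filter on low counts. The quasi-likelihood test of edgeR called 40 of 40 lower in the adult at an adjusted p under 0.05, where 15.7% of the 11831 tested genes were so called. The rule also demanded that every foetus exceed every adult, which held for 12.7% of the tested genes. Both counts follow from how the genes were chosen, so nothing is read from them. Log2 fold changes in that fit ran from −5.74 to −2.10 with a median of −2.56, where the median over all tested genes was 0.02.

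The foetal libraries differed among themselves in some of the 40 genes. Differences between animals and between their libraries cannot be told apart here. Between the highest and the lowest foetal library, 14 of the 40 genes (35.0%) spanned 2-fold or more. Of the 9490 tested genes with a foetal mean of 5 CPM or more, 2.58% did, and of the 207 genes that were 2- to 4-fold higher in the foetus and met every other condition of the rule, 9.18% did. The median span was 1.69-fold in the 40 genes, 1.38-fold in those 207 and 1.27-fold in the 9490. The median SD between foetal libraries was 0.33 on the log2 scale for the 40 genes and 0.17 for all tested genes. These are descriptions of lists, since genes of the same libraries are not replicates. The rule used the mean and the lowest of the same foetal values, so the span is not independent of the selection.

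The count of wide genes depended on Foetus replicate 3. Without it, 3 of the 40 genes (7.50%) spanned 2-fold or more, against 1.05% of the 9490. Replicate 3 was the lowest foetus in 9 of the 14 wide genes and the highest in 4. Reads assigned to no annotated feature made up 29.8% of that library and 24.6% to 25.2% of the other foetal ones, and the part of this in the member levels was not tested. Leaving out replicates 1, 2 or 4 gave 10, 13 and 12 wide genes.

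The widest span was found in the rank 3 gene, at 923, 354, 181 and 545 CPM in Foetus replicates 1 to 4, a 5.09-fold range. The rank 7 gene had nearly the same profile on a lower level, at 54.6, 20.8, 11.0 and 40.6 CPM, a 4.97-fold range. In both, replicate 1 was highest, followed by 4, 2 and 3. Both also had their highest adult value in Adult replicate 1, with 79.7 CPM against 24.6 to 31.3 CPM in the other adults for the rank 3 gene, and 5.59 CPM against 2.07 to 2.62 CPM for the rank 7 gene. At the other extreme stood the rank 12 gene, at 129.5, 137.5, 132 and 138 CPM in the foetuses, a 1.07-fold range, but at 14.4, 29.1, 26.1 and 5.87 CPM in the adults.

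This order of the foetuses, with replicate 1 highest and then 4, 2 and 3, recurred among the members. It was found in 10 of the 40 genes (25.0%), those of rank 3, 7, 11, 16, 20, 22, 27, 31, 32 and 40, while no other of the 24 possible orders was found in more than 3. Of all tested genes 2.16% had it, and of the 207 genes with the milder difference 1.45%. With replicates 2 and 4 exchanged, these were 1 of the 40 genes (2.50%), 3.36% of tested genes and 12.6% of the milder ones. There too, replicate 1 was highest and replicate 3 lowest. The scaling matters here, because Foetus replicate 1 was the lowest foetus for 40.8% of tested genes in CPM by library total. With library sizes scaled by TMM (a factor that centres the bulk of genes), the order was found in 11 of the 40 genes (27.5%), in 5.90% of the tested genes and in 9.66% of the milder ones. With DESeq2 size factors, these were 11 genes, 6.90% and 10.1%. Without Foetus replicate 3, the order 1, 4, 2 was found in 12 of the 40 genes (30.0%) and in 8.53% of the tested genes. Foetus replicate 1 was the highest foetus in 12 of the 40 genes (30.0%) and in 11.2% of tested genes, and under TMM scaling in 17 (42.5%) and 24.0%. Among the 207 milder genes the same shares were 18.8% by library total and 34.3% under TMM scaling, closer to those of the 40 genes. The pattern was noticed in these data and was not tested, and the 10 genes share the libraries in which it was seen. Because the rule used the mean and the lowest foetal value, the order is not independent of the selection.

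The 10 genes of this order differed in size of the gradient. Their highest over lowest foetal value ran from 1.201 in the rank 20 gene to 5.09 in the rank 3 gene, with a median of 2.53, and 7 of them were among the 14 wide genes. The rank 22 gene was at 308, 183, 123 and 201 CPM in Foetus replicates 1 to 4. The rank 16 gene was at 28.4, 18.1, 9.67 and 19.4 CPM, and the rank 32 gene at 13.8, 9.68, 4.95 and 10.9 CPM. Summed over the 10 genes the foetuses held 4274, 2658, 1898 and 3178 CPM, which was 40.2% of the summed foetal level of the 40 genes. In the adults the same sums were 562, 589, 537 and 549 CPM, most of it from the nearly level rank 31 gene. The other 9 genes summed to 236, 217, 171 and 201 CPM in Adult replicates 1 to 4 and to 2169, 1290, 877 and 1565 CPM in the foetuses. Single genes of the 10 differed widely between adults, as the rank 3 gene did.

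**Figure D3:**
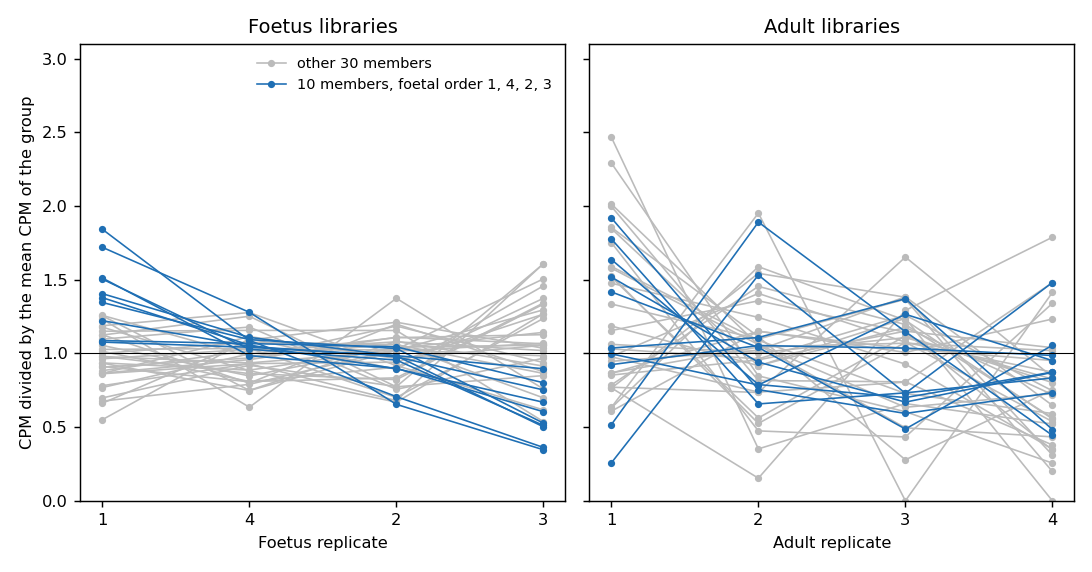
CPM of each of the 40 genes divided by the mean of its group, for the foetal libraries (left, replicates set in the order 1, 4, 2, 3) and the adult libraries (right). Each line joins the values of 1 gene. The 10 genes in blue share the foetal order by selection, with medians of 1.39, 1.06, 0.966 and 0.566 of the group mean in replicates 1, 4, 2 and 3, and in the adult they scatter on both sides of 1.

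Other members were highest in Foetus replicate 3, at about the rate of all tested genes. This held for 15 of the 40 genes (37.5%), near the 40.04% of all tested genes, and under TMM scaling for 11 (27.5%), near 30.4%. Of these 15, 4 spanned 2-fold or more. The rank 4 gene was the clearest of the more abundant ones, at 29.1, 25.3, 59.9 and 34.6 CPM in Foetus replicates 1 to 4 and 4.58, 1.58, 3.23 and 2.62 CPM in the adults. The rank 37 gene, at 25.2, 38.3, 56.1 and 29.5 CPM, and the rank 28 gene, at 11.3, 12.5, 25.9 and 14.8 CPM, were also highest there. The members did not therefore move as a block with replicate 3, which was the lowest foetus in 14 genes and the highest in 15.

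Adult libraries differed in the residual level of the 40 genes. The median SD between adult libraries was 0.60 on the log2 scale, against 0.25 over all tested genes. It was larger than the foetal SD in 30 of the 40 genes (75.0%), close to the 71.7% of all tested genes. Among the 23 members with an adult mean of 5 CPM or more, 16 (69.6%) spanned 2-fold or more between adults, where 13.6% of the 9669 tested genes at that level did. Without Adult replicate 4 these were 10 members (43.5%) and 4.43% of tested genes, and without Adult replicate 1 they were 11 members (47.8%) and 7.75%. The median adult mean was 24.3 CPM in these 23 members and 27.0 CPM in the 9669 tested genes. The adult span is not independent of the selection either, because the rule used the mean and the highest adult value. It was not computed for the 207 milder genes, so whether it is particular to the members was not tested.

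Adult replicate 1 most often held the highest residual level and Adult replicate 4 the lowest. Replicate 1 was the highest adult in 18 of the 40 genes (45.0%), against 24.6% of all tested genes, and replicates 2, 3 and 4 in 10, 9 and 3. Replicate 4 was the highest in 7.50% of members and in 30.7% of tested genes, and it was the lowest in 45.0% of members and 36.6% of tested genes. The rule used the mean and the highest adult value, so these shares are not independent of the selection. Under TMM scaling replicate 1 was highest in 20 members (50%) and 30.6% of tested genes, and replicate 4 in 3 members (7.50%) and 35.1%. These adult shares were not computed for the 207 milder genes, so whether they are particular to the members was not tested. Reads assigned to no annotated feature made up 31.6% of Adult replicate 4 and 26.4% to 27.8% of the other adult libraries, and the part of this in the member levels was not tested.

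**Figure D4:**
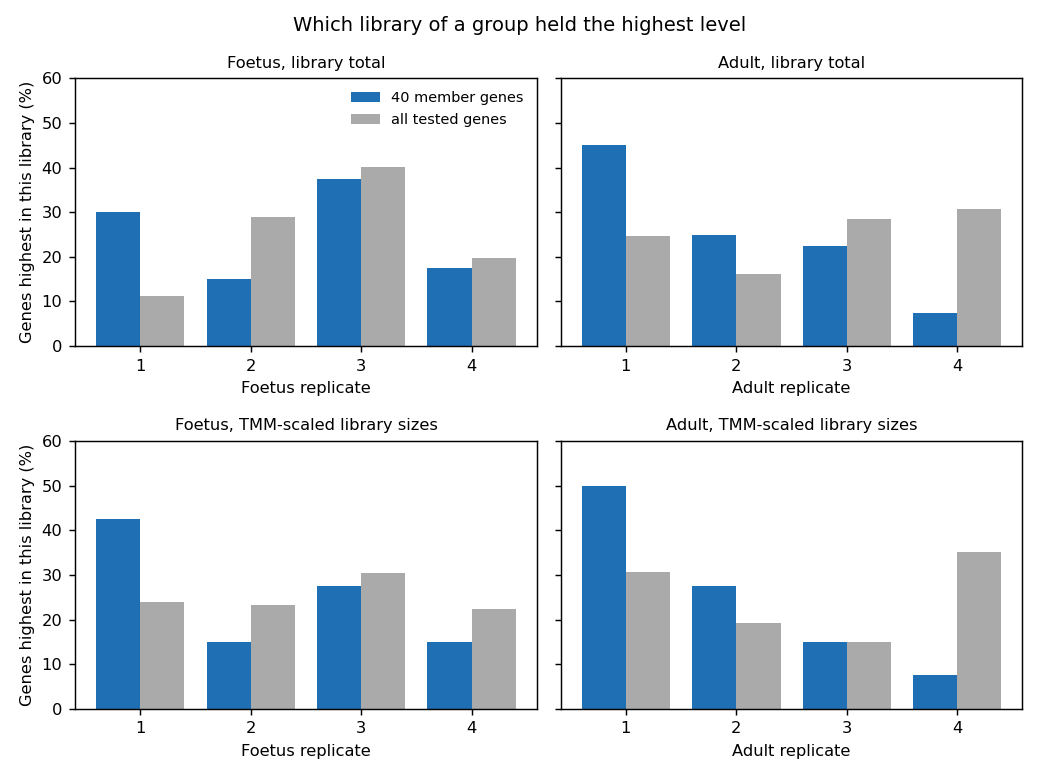
Percent of genes whose highest value within a group lay in each replicate, for the 40 genes (blue) and all tested genes (grey), with CPM by library total (top) and by TMM-scaled library size (bottom). Foetus replicate 1 and Adult replicate 1 hold the highest value in a larger share of the 40 genes than of all genes, and Adult replicate 4 in a smaller share, under both scalings. Among the 207 milder genes, which are not drawn, Foetus replicate 1 was highest in 18.8% (top) and 34.3% (bottom). Adult shares were not computed for them.

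The members followed several adult profiles. The rank 25 gene was at 44.7, 12.1, 11.1 and 34.2 CPM in Adult replicates 1 to 4, a pair of high and a pair of low libraries, and at 146, 113, 75.9 and 157 CPM in the foetuses. The rank 37 gene was at 17.1, 6.99, 6.91 and 3.25 CPM, and the rank 38 gene at 18.3, 15.5, 11.5 and 4.37 CPM, both highest in replicate 1 and lowest in replicate 4. Replicate 1 highest with replicate 4 lowest was found in 7 of the 40 genes. The rank 11 gene was the reverse, at 14.99, 89.2, 42.5 and 86.3 CPM, with Adult replicate 1 far below the others, while its foetuses lay between 328 and 533 CPM. Adult levels were nearly equal in the rank 33 gene, at 28.3, 34.0, 34.8 and 33.2 CPM, where the foetuses ranged from 126 to 162 CPM.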

How the data were processed

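Whole-number read counts per gene were deposited by the authors in 1 file per library, with no normalization, for 25028 Ensembl IDs. The 5 summary lines of each file, which name no gene and hold 61.2% to 69.5% of its reads, were left out. Which program counted the reads, with which strand setting, aligner, genome build and gene models, is not given in the sources used here, so counts of overlapping, antisense and near-identical genes are uncertain. The submitters' processing notes name DESeq2. A deposited table of normalised values was not used, since it holds the same counts, each library divided by 1 factor.

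CPM was computed from library totals. The adult and foetal groups were compared with the quasi-likelihood test of edgeR 4.0.16 in R 4.3.3 (TMM, filterByExpr, robust fit, no covariate), with Benjamini-Hochberg adjustment over 11831 genes. SEs were derived from the F statistic and are approximate. SDs on the log2 scale used a prior count of 2. Both scripts were tested on simulated data. No library appeared to be deposited in duplicate (chi-square over its degrees of freedom was at least 7.70 in every pair of replicates). Over all genes, it was 84.7 to 91.0 in pairs with Adult replicate 4 and 12.0 to 24.6 in the other adult pairs. In pairs with Foetus replicate 3 it was 25.1 to 40.6, and in the other foetal pairs 7.70 to 8.37. The part of these differences in the member levels was not tested. DESeq2 1.42.0, limma 3.58.1 (voom), other scalings, other limits of the rule, a replicate block and left-out libraries were tried as alternatives. The members, their rule and the measures were chosen with earlier results of these data known. The rule for named genes gave by ID, because no names matched, the member with the largest fold and that with the highest foetal mean. Members described by rank were chosen after their values were seen. Intervals and limits cover counting error only.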

Additional observations from a re-analysis of the deposited data

Results flagged for a closer look

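Of 84 sets of 4 libraries checked (each of the 40 genes, their summed share and the reads outside annotated features, in each group), 8 held a library far from the other 3. The limit used flags about 1 in 20 independent sets of normally distributed values, or 4.2. These sets share their libraries and come from genes selected on their levels, so no excess is read from the count. In the adults, Adult replicate 1 was high in the rank 3 gene (79.7 CPM, a gap of 0.878 of the range of the group), the rank 7 gene (5.59 CPM, 0.843) and the rank 9 gene (4.14 CPM, 0.855). Adult replicate 3 was high in the rank 5 gene (60.9 CPM, 0.885). In the foetuses, Foetus replicate 3 was low in the rank 27 gene (90.6 CPM, 0.850) and in the rank 38 gene (28.5 CPM, 0.991), where the other 3 lay between 60.9 and 61.2 CPM. Foetus replicate 4 was low in the rank 35 gene (31.5 CPM, 0.934). Foetus replicate 3 was also high in reads outside annotated features (29.8%, 0.889).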

How the results depend on the processing

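Of 193 alternative values, 166 stayed within 1.5 times the reported count, within 1 SD of the reported value, or on the same side of the threshold, and 27 moved. All 40 genes were called lower in the adult in each of 15 other settings of the test, the replicate block among them (40 with the block). This follows from the rule, which used the same contrast, so nothing is read from it. Over all genes tested, 1434 to 2279 were called lower in those settings. With the block, 1863 genes were higher and 1605 lower in the adult, against 2175 and 1857 without it. Same-numbered libraries correlated at −0.175 to 0.0641 in their deviations from the group means, so the numbers gave no sign of a pairing. The rule gave 81 genes at a fold of 3 or more and 8 at 8 or more. Other settings of the rule gave 33 to 54 genes, and leaving out 1 library 34 to 48. The genes themselves changed more than these counts, since leaving out 1 library removed 2 to 11 of the 40 and brought in 1 to 12 others. Without Adult replicate 4, 11 left, 2 of them through the upper limit, and 5 entered. Without Foetus replicate 3, 6 left and 12 entered.

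The summed share moved with the genes that entered or left. In the foetus it was 0.850% with DESeq2 size factors, 0.851% with TMM, 1.13% and 0.353% at a fold of 3 and of 8, and 3.09% with no upper limit. In the adult it was 0.135% with DESeq2 size factors, 0.135% with TMM, 0.215% and 0.0283% at a fold of 3 and of 8, and 0.548% with no upper limit. Leaving out 1 library gave 0.416% to 0.982% in the foetus and 0.0548% to 0.154% in the adult. Without any 1 adult library, the 2 most abundant genes passed the limit of 1000 CPM and left the list by construction. Leaving out 1 library gave 2 to 5 genes under 1 CPM in the adult, 3 to 13 genes that spanned 2-fold or more between foetuses, and 10 to 16 between adults. The alternatives for detection, order and span were chosen after the data were seen.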
